A study of Mus musculus with 12 samples.

Results

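The genes described here encode the actins and tropomyosins, the proteins that make up the backbone of the thin filament. They are the 6 actin genes *Acta1*, *Acta2*, *Actc1*, *Actb*, *Actg1* and *Actg2* and the 4 tropomyosin genes *Tpm1*, *Tpm2*, *Tpm3* and *Tpm4*, found in the deposited table by matching its Ensembl identifiers to these symbols. They are 10 of the 46983 genes in the table, and all 10 were among the 18023 genes that passed the filter on low values. RNA was sequenced from C2C12 cells, a mouse myoblast line whose cells fuse into myotubes when they differentiate. The WT group is named after PB-IP, the PiggyBac transposon vector of the study, and the PPARγ/+ group carried that vector with the coding sequence of PPARγ, a nuclear receptor that drives fat cell formation. Both were collected on 0d, before differentiation, and on 5d, after 5 days of it. Each of the 4 groups (WT_0d, WT_5d, PPARγ/+_0d and PPARγ/+_5d) held 3 libraries, 12 in all. The PPARγ/+ cells were transfected and selected with puromycin for positive clones, whose number is not given in the sources used here, nor is the selection of the WT cells. GEO's design text calls them inducible with uninduced controls, which the labels of the samples do not repeat. The replicates are called biological by the study, but nothing says whether they came from separate transfections.

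Actin monomers polymerise into filaments, and tropomyosin dimers lie along the groove of the filament, where they govern the access of myosin and of other binding proteins. *Acta1* and *Actc1* encode the actins of adult skeletal and cardiac sarcomeres, *Acta2* and *Actg2* those of vascular and enteric smooth muscle, and *Actb* and *Actg1* the cytoplasmic β- and γ-actins of all cells. In developing skeletal muscle, myoblasts rely on the cytoplasmic actins, young myotubes use the cardiac and vascular smooth muscle actins, and the skeletal actin predominates later. Each tropomyosin gene gives several proteins through alternative promoters and exons. *Tpm1*, *Tpm2* and *Tpm3* give both muscle and cytoplasmic forms, and *Tpm4* gives cytoplasmic forms.

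The deposited unit was FPKM, the fragments of a gene scaled by its length and by the depth of the library. Levels set side by side between genes depend on the length used for each. Between 15556076 and 22010122 fragments per library were recovered on genes, and the genes described here had from 3 fragments (*Actc1* in one PPARγ/+_0d library) to 78708 (*Acta1* in one WT_5d library). *Pparg* was at 5.10 to 7.56 FPKM in WT_0d, 3.12 to 4.59 in WT_5d, 27.98 to 46.4 in PPARγ/+_0d and 40.07 to 92.7 in PPARγ/+_5d, so the labels and the overexpressed gene were in accord in every library. The summed FPKM of 6 skeletal muscle markers (*Myod1*, *Myf5*, *Des*, *Myog*, *Myh3* and *Ckm*) was 128.1 to 239.5 in WT_0d and 348.2 to 1465 in WT_5d. It was 56.2 to 80.4 in PPARγ/+_0d and 348.9 to 419.5 in PPARγ/+_5d. Of the markers of other cells, those of cardiomyocytes summed to at most 3.21 FPKM in any library, and those of smooth muscle to 41.94 to 80.94 FPKM over all libraries. Of the latter *Smtn* (17.25 to 53.03 FPKM), *Tagln* (8.03 to 50.6) and *Lmod1* (1.32 to 13.7) made up nearly all, while *Myh11* stayed at or under 0.0771 FPKM and *Myocd* was at 0 in 9 libraries. Those of fat cells (*Adipoq*, *Plin1*, *Cidec*, *Fabp4*, *Lep* and *Cfd*) summed to at most 0.0794 FPKM in WT libraries, 2.90 to 5.04 in PPARγ/+_0d and 13.3 to 67.2 in PPARγ/+_5d. A pair of WT libraries stood apart in the muscle genes. *Myog*, a transcription factor of muscle differentiation, was at 15.7 FPKM in WT_0d replicate 2 against 2.69 and 1.47 in the other WT_0d libraries. It was at 90.0 FPKM in WT_5d replicate 3 against 271.1 and 214.6. Results that rest on these libraries are given with and without them. In bulk RNA, fewer cells of a type and less RNA per cell cannot be told apart.

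The coding sequences of the actins are close copies of each other, which bears on how far their reads could be told apart. The first 60 coding bases of the 3 α-actins are shown here, 5′ to 3′ on the gene strand, with capitals where the 3 are not all the same, from GENCODE transcripts on GRCm38 (*Acta1* at chr8:123893638-123893697, *Actc1* at chr2:114051972-114052031, *Acta2* at chr19:34252494-34252553, all on the minus strand and in a coding exon).
Acta1: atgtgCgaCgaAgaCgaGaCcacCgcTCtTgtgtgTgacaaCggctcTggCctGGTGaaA
Actc1: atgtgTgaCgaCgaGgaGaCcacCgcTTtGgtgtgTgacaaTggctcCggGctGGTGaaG
Acta2: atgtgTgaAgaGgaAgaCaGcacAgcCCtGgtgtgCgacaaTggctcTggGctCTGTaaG
In this stretch 19 of the 60 columns differ. Over the whole coding sequence (1131 bases each) *Acta1* and *Actc1* are 86.3% identical, with no identical run longer than 29 bases, and *Acta1* and *Acta2* are 85.4% identical, also with a longest run of 29. The cytoplasmic pair *Actb* and *Actg1* is the closest, at 88.6% with a run of 62, and the longest run of all, 77 bases, is shared by *Acta1* and *Actb*. Reads that lie wholly within such a run match both genes, and how they were counted is not given in the sources used here.

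For 8 of the 10 genes a RefSeq promoter window on GRCm38.p6 was found, *Tpm3* with 2, and *Actb* and *Actg2* had none. The CArG box is the site that serum response factor (SRF) binds in many actin promoters. It was searched for on either strand of the 250 bases before the start, as CC, 6 bases of A or T, and GG. This exact pattern was found in the windows of *Acta1*, *Actc1* and *Actg1*. Forms with a mismatch were not searched for, so the other windows may hold such forms. The parts of these windows outside annotated exons are shown, 5′ to 3′ on the gene strand, with the CArG box in capitals (*Acta1* at chr8:123894776-123895025, *Actc1* at chr2:114052888-114053125, *Actg1* at chr11:120348543-120348677, all on the minus strand).
Acta1: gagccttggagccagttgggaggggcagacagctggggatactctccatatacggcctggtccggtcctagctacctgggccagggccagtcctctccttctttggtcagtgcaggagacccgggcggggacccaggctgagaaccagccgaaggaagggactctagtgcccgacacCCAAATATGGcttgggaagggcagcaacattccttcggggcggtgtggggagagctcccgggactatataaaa
Actc1: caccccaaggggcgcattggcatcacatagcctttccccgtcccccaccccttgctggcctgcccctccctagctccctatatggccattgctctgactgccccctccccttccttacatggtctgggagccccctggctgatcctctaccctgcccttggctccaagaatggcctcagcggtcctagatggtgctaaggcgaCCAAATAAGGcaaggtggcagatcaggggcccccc
Actg1: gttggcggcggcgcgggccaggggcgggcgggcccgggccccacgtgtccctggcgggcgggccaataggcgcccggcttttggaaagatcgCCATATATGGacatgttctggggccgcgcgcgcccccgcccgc
Of all 32851 windows of the same length 1.47% held a CArG box. The E-box CANNTG, which myogenic factors bind among many others, was in the windows of 6 of the 8 genes (*Acta1*, *Acta2*, *Actg1*, *Tpm1*, *Tpm2* and *Tpm3*), against 66.2% of all windows. The MCAT motif CATTCC was in those of *Acta1*, *Acta2* and *Tpm1* (12.6% of all windows), and TATAAA in that of *Acta1* alone among the 8 (12.4% of all windows). None of these matches overlapped another. In the windows of *Acta2* and *Tpm1*, 217 and 193 of the 250 bases lay in annotated exons of those genes. The MCAT matches of these windows lay in those exons. As the values below show, of the 3 genes with the exact CArG match *Acta1* and *Actc1* rose and *Actg1* did not. Any part of the motif in these changes was not tested.

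In WT cells, 5 of the 10 genes rose and 1 fell between 0d and 5d. A gene was called in the comparison of days when its limma p-value was at most 0.05 unadjusted and its change at least 2-fold, the thresholds of the study, and 16.5% of all genes tested were called in WT cells this way (8.94% higher and 7.53% lower). The genes that rose were *Acta1*, *Actc1*, *Acta2*, *Tpm1* and *Tpm2*, and the one that fell was *Actg2*. The other 4, *Actb*, *Actg1*, *Tpm3* and *Tpm4*, were lower on 5d in every library but short of 2-fold. All 10 also had adjusted p-values of 0.05 or less in limma, as did 37.1% of all genes tested, and none overlapped between 0d and 5d, which held for 51.1%. The median log2 change of the 10 was 0.25, against −0.08 over all genes.

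PPARγ/+ cells gave the same directions for all 10 genes, with 3 called as risen (*Acta1*, *Actc1* and *Tpm2*) and 2 as fallen (*Actg2* and *Tpm3*), where 15.2% of all genes tested were called (9.11% higher and 6.06% lower). *Acta2* and *Tpm1* were higher on 5d but short of 2-fold. All 10 again had adjusted p-values of 0.05 or less in limma (47.5% of all genes tested) and did not overlap between the days (58.1% of all genes tested). The plot of FPKM by library shows the level of each gene in each of the 12 libraries.

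**Figure D1:**
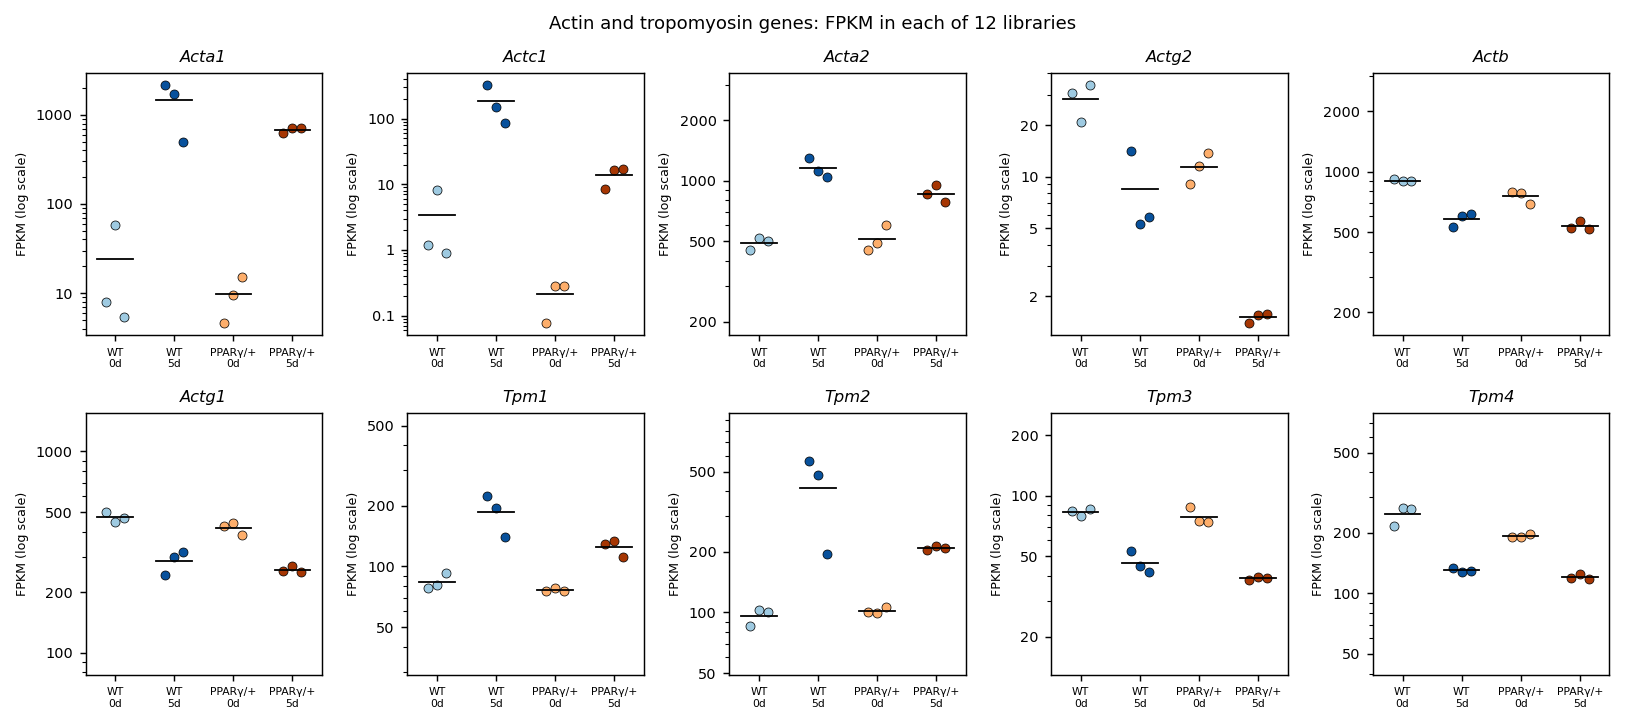
FPKM (log scale) of the 6 actin and 4 tropomyosin genes, 1 point per library and a line at the mean of each group of 3. *Acta1* and *Actc1* rise from 0d to 5d in both cell types, *Actc1* lies lower in PPARγ/+ cells on either day, *Actg2* falls, and *Actb*, *Actg1*, *Tpm3* and *Tpm4* lie lower on 5d.

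*Acta1*, which encodes skeletal muscle α-actin (ENSMUSG00000031972, chromosome 8 of GRCm38, 123891769 to 123894751, minus strand), was at 7.95, 58.6 and 5.4 FPKM in the 3 WT_0d libraries and at 2156, 1725 and 491 in those of WT_5d. Replicate 2 stood high on 0d and replicate 3 low on 5d, but the days did not overlap. In limma the rise was 6.48 in log2 (standard error 0.99, adjusted p = 0.00379), or 89.0-fold. Without those libraries it was 8.18 (adjusted p = 0.00352 in limma). PPARγ/+ cells held 4.6, 9.50 and 15.3 FPKM on 0d and 622, 714 and 715 on 5d, a rise of 6.27 (standard error 0.39, adjusted p = 6.35e-05 in limma) or 77.2-fold. On 5d *Acta1* had the highest mean of the 6 actins in WT cells, 1457 ± 864 FPKM (SD, n = 3), though it lay under *Acta2* in replicate 3, and it was second to *Acta2* in PPARγ/+ cells, at 684 ± 54 (SD, n = 3).

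*Actc1*, the cardiac α-actin that fetal skeletal muscle also makes (ENSMUSG00000068614, chromosome 2, 114047282 to 114053548, minus strand), followed *Acta1* at a lower level. Its FPKM was 1.18, 8.26 and 0.908 in WT_0d and 324.8, 150.7 and 85.3 in WT_5d, again with replicate 2 high on 0d and replicate 3 lowest on 5d. The rise was 6.19 in log2 (standard error 0.88, adjusted p = 0.00293 in limma) or 73.0-fold, and 7.61 without those 2 libraries (adjusted p = 0.00429 in limma). PPARγ/+ cells held 0.0760, 0.285 and 0.283 FPKM on 0d, from 3, 12 and 10 fragments, and 8.55, 16.6 and 16.9 on 5d. There the rise was 5.51 (standard error 0.39, adjusted p = 9.78e-05 in limma) or 45.6-fold, and it ranged from 3.58 to 6.10 over the alternatives, since the 0.1 FPKM added to each value is close to the level on 0d. The 4 groups of *Actc1* did not overlap at all, in the order WT_5d, PPARγ/+_5d, WT_0d and PPARγ/+_0d.

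*Acta2*, vascular smooth muscle α-actin (ENSMUSG00000035783, chromosome 19, 34241090 to 34255590, minus strand), was abundant before differentiation in both cell types. It went from 452.6, 522.3 and 504.3 FPKM in WT_0d to 1291, 1116 and 1048 in WT_5d, a rise of 1.22 in log2 (standard error 0.14, adjusted p = 0.00149 in limma) or 2.33-fold. In PPARγ/+ cells it went from 452.6, 490.4 and 600.0 to 862.7, 947.2 and 781.2 FPKM, by 0.75 (standard error 0.13, adjusted p = 0.00367 in limma), 1.69-fold and not called. *Acta2* lay below *Actb* in all 6 libraries of 0d and above it in all 6 of 5d.

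*Actg2*, enteric smooth muscle γ-actin (ENSMUSG00000059430, chromosome 6, 83512905 to 83536265, minus strand), went the other way. Its FPKM was 30.6, 20.9 and 34.2 in WT_0d and 14.2, 5.33 and 5.84 in WT_5d, a log2 change of −1.86 (standard error 0.40, adjusted p = 0.0123 in limma), 3.63-fold lower. Without WT_0d replicate 2 and WT_5d replicate 3 it was −1.88 (adjusted p = 0.0605 in limma). From 9.001, 11.6 and 13.8 FPKM in PPARγ/+_0d it fell to 1.39, 1.55 and 1.59 in PPARγ/+_5d, a log2 change of −2.82 (standard error 0.16, adjusted p = 4.24e-05 in limma), 7.07-fold lower. The WT_5d and PPARγ/+_0d libraries overlapped, and the other neighbours in the order WT_0d, PPARγ/+_0d, WT_5d and PPARγ/+_5d did not. The smooth muscle actins thus moved in opposite directions. *Acta2* was 18.2 ± 5.9 times *Actg2* in WT_0d and 160 ± 62 times in WT_5d, and 45.4 ± 4.3 times in PPARγ/+_0d and 573 ± 71 times in PPARγ/+_5d (SD, n = 3 each), with no overlap in any of the 4 comparisons of days or cell types.

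The cytoplasmic actins were lower on 5d in both cell types. On 0d *Actb* had the highest mean of the 6 actins, and *Actg1* came after *Acta2*. In WT_0d replicate 1, however, *Actg1* lay above *Acta2* (498.8 against 452.6 FPKM). The order of these means depends on the lengths used, 2658 bases for *Actg1* and 1781 for *Acta2*. In fragments *Actg1* was above *Acta2* in every library of 0d but PPARγ/+_0d replicate 3 (22428 against 23334). *Actb* (ENSMUSG00000029580, chromosome 5, 142903115 to 142906754, minus strand) lay between 894.3 and 915.2 FPKM in WT_0d and between 531.4 and 617.0 in WT_5d, a log2 change of −0.64 (standard error 0.13, adjusted p = 0.00958 in limma). In PPARγ/+ cells it lay between 690.5 and 792.3 on 0d and between 519.1 and 568.5 on 5d, a log2 change of −0.49 (standard error 0.09, adjusted p = 0.00468 in limma). *Actg1* (ENSMUSG00000062825, chromosome 11, 120345690 to 120348542, minus strand) lay between 446.0 and 498.8 FPKM in WT_0d and between 243.9 and 317.6 in WT_5d, with log2 changes of −0.72 ± 0.13 in WT and −0.69 ± 0.08 in PPARγ/+ cells (± standard error). In PPARγ/+ cells its range was 386.4 to 441.8 on 0d and 252.0 to 269.2 on 5d. These 2 genes kept close to one ratio, with *Actb* at 1.77 to 2.18 times *Actg1* in all 12 libraries. The exons of *Actg1* also hold 83 and 64 bases of the microRNA genes *Gm23419* and *Mir6935* on its own strand.

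Of the tropomyosins, *Tpm2* changed most. It encodes β-tropomyosin (ENSMUSG00000028464, chromosome 4, 43514711 to 43523765, minus strand), and was at 86.1, 102.3 and 101.1 FPKM in WT_0d and at 561.9, 481.9 and 195.2 in WT_5d. The third WT_5d library stood well below the others, yet above every library of 0d. The rise was 1.96 in log2 (standard error 0.39, adjusted p = 0.00961 in limma) or 3.90-fold, and 2.48 without that library and WT_0d replicate 2 (adjusted p = 0.00438 in limma). In PPARγ/+ cells *Tpm2* went from 100.3, 98.95 and 106.2 FPKM to 204.5, 214.0 and 209.1, a rise of 1.04 (standard error 0.05, adjusted p = 3.52e-05 in limma) or 2.05-fold. *Tpm1*, α-tropomyosin (ENSMUSG00000032366, chromosome 9, 67022590 to 67049406, minus strand), went from 78.2, 80.9 and 93.0 FPKM in WT_0d to 223.8, 195.6 and 140.0 in WT_5d, a rise of 1.13 (standard error 0.18, adjusted p = 0.00465 in limma) or 2.18-fold. This call was lost without WT_5d replicate 1, where the rise was 0.98. In PPARγ/+ cells *Tpm1* went from 75.6, 77.8 and 75.3 FPKM to 129.2, 133.6 and 111.0, by 0.70 (standard error 0.08, adjusted p = 5.07e-04 in limma), and was not called.

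*Tpm3* and *Tpm4* were lower on 5d in both cell types. *Tpm3* (ENSMUSG00000027940, chromosome 3, 90072649 to 90100902, plus strand) lay between 78.9 and 86.3 FPKM in WT_0d and between 42.0 and 53.1 in WT_5d, and between 74.3 and 87.5 in PPARγ/+_0d and 38.3 and 39.3 in PPARγ/+_5d. Its log2 change was −0.84 in WT cells (standard error 0.10, adjusted p = 0.0018 in limma) and −1.01 in PPARγ/+ cells (standard error 0.07, adjusted p = 1.03e-04 in limma). The latter was just past 2-fold, and short of it without PPARγ/+_0d replicate 1 (−0.93) and under median-ratio scaling of the libraries (−0.88), so that the call rests on a change at the 2-fold mark. *Tpm4* (ENSMUSG00000031799, chromosome 8, 72134975 to 72153142, plus strand) lay between 215.3 and 265.8 FPKM in WT_0d, 127.0 and 134.2 in WT_5d, 189.5 and 197.5 in PPARγ/+_0d and 117.6 and 125.3 in PPARγ/+_5d. Its log2 changes were −0.92 ± 0.11 in WT and −0.67 ± 0.05 in PPARγ/+ cells (± standard error), and without WT_0d replicate 1 it reached −1.02 in WT cells and was called. The exons of *Tpm4* share 134 bases with *Gm26586* on the other strand. Values per gene cannot separate the muscle from the cytoplasmic forms of *Tpm1*, *Tpm2* and *Tpm3*.

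**Figure D2:**
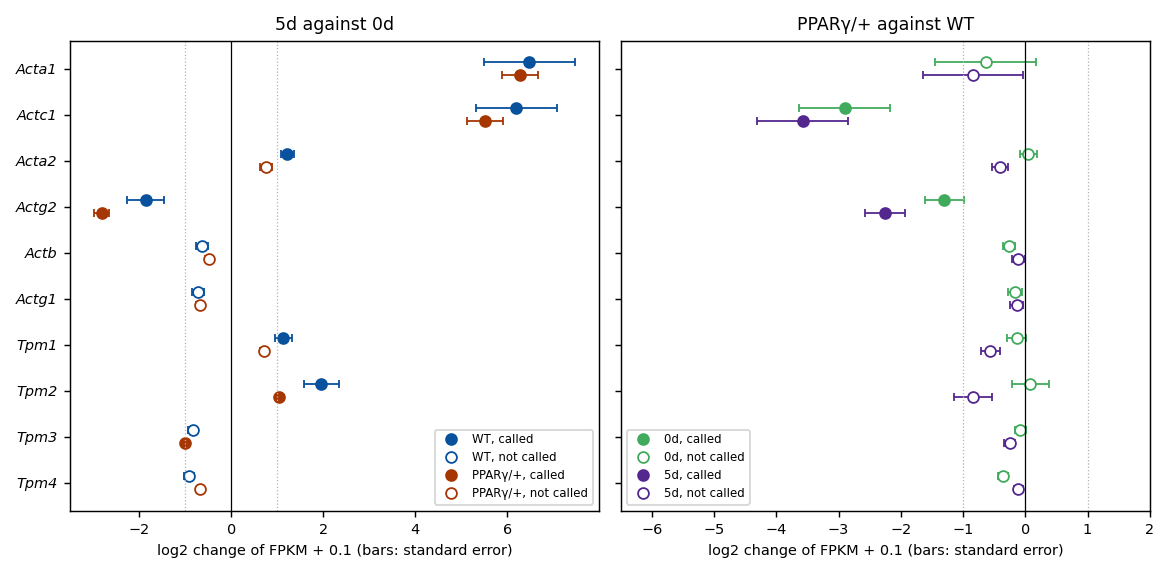
Log2 change of each gene, with bars of 1 standard error from limma, between 5d and 0d (left, WT and PPARγ/+ cells) and between PPARγ/+ and WT cells (right, on 0d and 5d). Filled points passed the test and a 2-fold change (dotted lines). The changes with time point the same way in both cell types, and *Actc1* and *Actg2* are the filled points on the right.

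As shares of the summed FPKM of their family in a library, which do not depend on the scaling of libraries, the make-up of the actins and of the tropomyosins shifted in both cell types. The striated actins *Acta1* and *Actc1* made up 1.41% ± 1.74 of the actins in WT_0d and 41.7% ± 16.9 in WT_5d, and 0.584% ± 0.318 in PPARγ/+_0d and 29.6% ± 2.2 in PPARγ/+_5d (SD, n = 3 each). By library the WT_5d shares were 54.4%, 48.2% and 22.5%, so that the third lay under all 3 of PPARγ/+_5d (27.7%, 29.0% and 32.0%). The cytoplasmic actins went from 71.5% ± 2.7 to 25.5% ± 9.9 in WT cells and from 68.6% ± 4.9 to 33.8% ± 0.5 in PPARγ/+ cells. The smooth muscle actins, nearly all *Acta2*, moved less, from 27.1% ± 1.6 to 32.8% ± 7.2 and from 30.8% ± 4.6 to 36.6% ± 2.1 (SD, n = 3 each). The summed FPKM of the 6 actins went from 1923 ± 29 to 3674 ± 1017 in WT cells and from 1708 ± 26 to 2360 ± 137 in PPARγ/+ cells (SD, n = 3 each), without overlap.

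Among the tropomyosins *Tpm4* held the largest share on 0d and *Tpm2* on 5d in both cell types. These ranks depend on the lengths used, which cover all exons of a gene. They were 6485 bases for *Tpm1*, 2909 for *Tpm2*, 6085 for *Tpm3* and 2203 for *Tpm4*. In fragments *Tpm4* was below *Tpm1* and *Tpm3* in WT_0d replicate 1 (9202, 9832 and 9935) and above them in replicate 2 (14770, 13229 and 12112). It lay between them in replicate 3 (13337, 13966 and 12164) and below them in every PPARγ/+_0d library. On 5d *Tpm1* had more fragments than *Tpm2* in every PPARγ/+ library (17378, 18629 and 13381 against 12338, 13384 and 11305). The same held in WT_5d replicate 3 (20684 against 12931), and the reverse in WT_5d replicates 1 and 2. *Tpm4* went from 48.4% ± 2.0 to 18.1% ± 6.4 in WT cells and from 42.8% ± 0.9 to 24.5% ± 0.2 in PPARγ/+ cells, while *Tpm2* went from 18.9% ± 0.5 to 51.02% ± 10.8 and from 22.7% ± 0.7 to 42.4% ± 1.3 (SD, n = 3 each). *Tpm1* took 16.5% ± 1.0 and then 24.6% ± 2.7 in WT cells, and 17.0% ± 0.6 and then 25.2% ± 1.7 in PPARγ/+ cells. *Tpm3* was at 16.3% ± 1.6 and then 6.34% ± 1.70, and at 17.5% ± 1.6 and then 7.89% ± 0.27 (SD, n = 3 each). Unlike the actins, the summed tropomyosin FPKM overlapped between the days in WT cells (463.7 to 541.9 and 506.0 to 973.1), whereas in PPARγ/+ cells it did not (441.0 to 453.3 and 476.8 to 512.2). The overlap in WT cells came from WT_5d replicate 3 alone, at 506.0, as the other WT_5d libraries held 973.1 and 849.2. Every one of these shares but that of the smooth muscle actins in PPARγ/+ cells was without overlap between the days, at p = 0.1 in the exact two-sided permutation test, the smallest that 3 libraries against 3 allow (0.162 adjusted over the 76 shares and ratios tested).

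**Figure D3:**
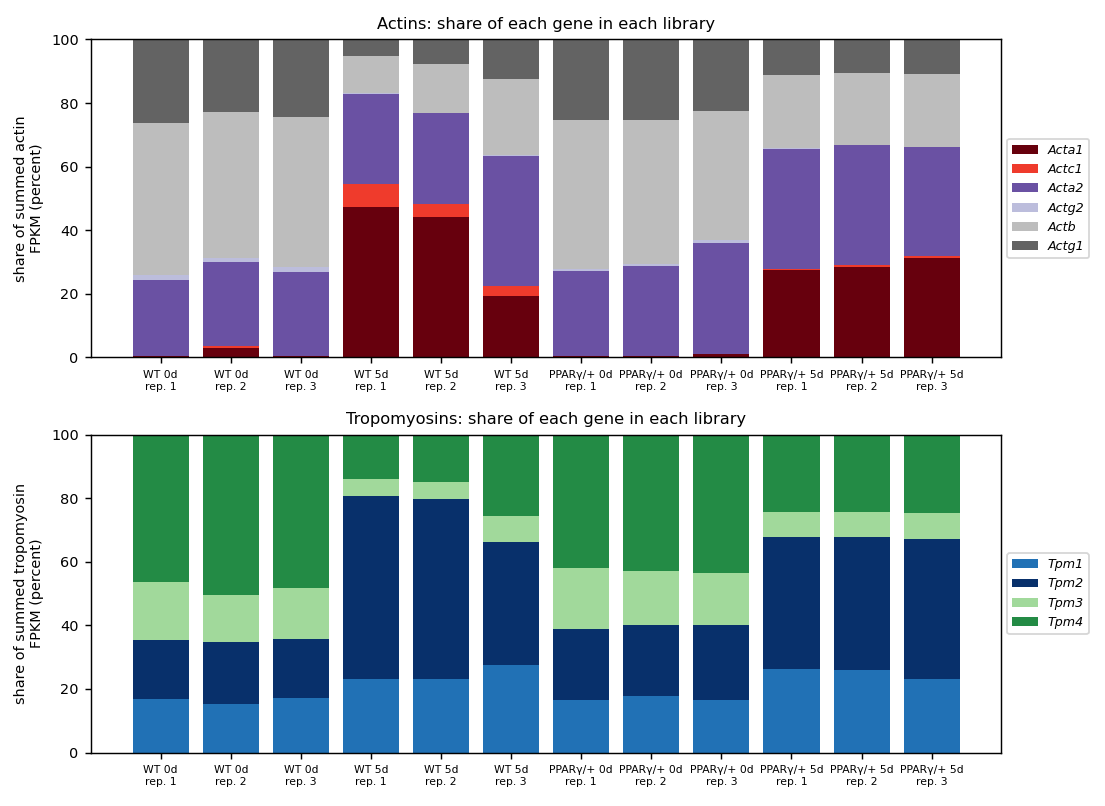
Share of each gene in the summed FPKM of the 6 actins (top) and the 4 tropomyosins (bottom), in percent, 1 stacked bar per library. *Actb* and *Actg1* fill most of the actin bars on 0d, *Acta1* and *Acta2* those of 5d, and *Tpm2* takes the place of *Tpm4* as the largest tropomyosin share. WT_5d replicate 3 shows smaller shares of *Acta1* and *Tpm2* than the other WT_5d libraries.

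Between the cell types, *Actc1* and *Actg2* were the only ones of the 10 called, with lower levels in PPARγ/+ cells on both days. Here the call required a limma p-value that stayed within 0.05 after Benjamini-Hochberg adjustment, and a 2-fold change or more. On 0d 1.96% of all genes tested were called (1.39% lower), and on 5d 1.10% (0.533% lower). For *Actc1* the log2 difference was −2.90 on 0d (standard error 0.73, adjusted p = 0.045 in limma) and −3.58 on 5d (standard error 0.73, adjusted p = 0.0371 in limma), 7.46-fold and 11.9-fold lower. For *Actg2* it was −1.30 on 0d (standard error 0.32, adjusted p = 0.0411 in limma) and −2.26 on 5d (standard error 0.32, adjusted p = 0.0067 in limma), 2.46-fold and 4.79-fold lower. Neither overlapped between the cell types on either day. Of the 10 genes 6 did not overlap on 0d and 6 on 5d, all lower in PPARγ/+ cells, where 26.8% of all genes tested on 0d (13.1% lower) and 18.5% on 5d (8.31% lower) did not. The median log2 difference of the 10 was −0.22 on 0d and −0.49 on 5d, against 0.02 over all genes on either day.

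These calls were not equally firm. That of *Actg2* on 5d was kept with any 1 of the 12 libraries left out, and lost in a fit of the 6 libraries of 5d alone (adjusted p = 0.107 in limma, the same change). *Actc1* on 5d was kept in 5 of 12 such fits and lost without WT_5d replicate 1 or 2, PPARγ/+_0d replicate 2 or 3, or any PPARγ/+_5d library (log2 changes −3.74 to −3.07, adjusted p up to 0.146 in limma). On 0d *Actc1* was kept in 3 of 12, without WT_0d replicate 3 or WT_5d replicate 1 or 3, and *Actg2* in 4 of 12, without WT_0d replicate 2 or any WT_5d library. Both had adjusted p-values near the threshold there. Without WT_0d replicate 2, the library with the highest *Actc1* of 0d, the difference of *Actc1* on 0d was −1.94 (adjusted p = 0.0884 in limma), and without WT_5d replicate 3 as well it was −1.94 with an adjusted p of 0.032 in limma. Markers of fat cells moved with these differences, from at most 0.0794 FPKM in sum in WT libraries to 2.90 or more in PPARγ/+ libraries, and their part in the result was not tested.

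The other 8 genes differed less between the cell types. On 0d the log2 difference of *Tpm4* was −0.36 (standard error 0.08, adjusted p = 0.031 in limma), short of 2-fold. It was the third of the 10 to reach an adjusted p-value of 0.05 or less on 0d, as did 5.58% of all genes tested. On 5d *Actc1* and *Actg2* alone of the 10 did (1.63% of all genes tested). *Actb*, *Actg1* and *Tpm1* did not overlap on 0d but did not pass the test (log2 differences −0.26, −0.17 and −0.14). On 0d *Acta1*, *Acta2*, *Tpm2* and *Tpm3* overlapped, and the sign of *Acta1* turned from −0.64 to 0.41 without WT_0d replicate 2. On 5d the 8 genes all had negative log2 changes, from −0.84 for *Acta1* and *Tpm2* (standard errors 0.81 and 0.30) to −0.11 for *Actb* and *Tpm4*, and none passed the test, *Acta2*, *Tpm1*, *Tpm3* and *Tpm4* not overlapping and *Tpm1* coming closest (−0.56, standard error 0.15, adjusted p = 0.0923 in limma).

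WT_5d replicate 3 decided part of this. With it left out, *Tpm2* was called on 5d (log2 change −1.31, adjusted p = 5.39e-05 in limma). When WT_0d replicate 2 was left out as well, *Acta1* was called too (log2 change −1.50, adjusted p = 0.0391 in limma), together with *Actc1* (−4.03), *Actg2* (−2.45) and *Tpm2* (−1.31). The skeletal muscle markers were lowest in that library among those of WT_5d, 348.2 FPKM in sum, under the 348.9 to 419.5 of PPARγ/+_5d. Leaving these libraries out was chosen after their values had been seen.

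An interaction term, fitted over all 12 libraries, compared the time course of the cell types. It is the log2 change of PPARγ/+ cells less that of WT cells. None of the 10 genes had an adjusted p-value of 0.05 or less for it in limma, where 0.760% of all genes tested did, and none was called by voom on the recovered fragments. Before adjustment 2 of the 10 reached 0.05, *Acta2* (−0.47, standard error 0.19) and *Tpm2* (−0.92, standard error 0.42), against 12.01% of all genes tested. The coefficient of *Actg2* was −0.96 (standard error 0.45), and that of *Acta1* −0.20 with a standard error of 1.15. Without WT_5d replicate 3, *Tpm2* (−1.40, adjusted p = 0.00101 in limma) and *Tpm1* (−0.62, adjusted p = 0.0415 in limma) were called, both with a smaller rise in PPARγ/+ cells. With WT_0d replicate 2 left out as well, *Tpm2* was called (−1.44, adjusted p = 0.00179 in limma). *Tpm1* was then not called (−0.59, adjusted p = 0.0777 in limma).

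The ratio of the striated actins to each other, unlike the level of *Acta1*, did not overlap between the cell types on either day. *Actc1* was 14.8%, 14.1% and 16.8% of *Acta1* in the WT_0d libraries and 15.1%, 8.74% and 17.4% in those of WT_5d. In PPARγ/+ cells it was 1.66%, 2.99% and 1.85% on 0d and 1.38%, 2.33% and 2.37% on 5d. Those of PPARγ/+_0d rest on 3, 12 and 10 fragments of *Actc1*, and the ratio was taken on FPKM with nothing added. Every WT library lay above every PPARγ/+ library, and the libraries that stood apart in the muscle genes, WT_0d replicate 2 (14.1%) and WT_5d replicate 3 (17.4%), also lay above every PPARγ/+ library, the latter as the highest of all. As log2 ratios the cell types differed by −2.86 on 0d and −2.75 on 5d, from −3.12 to −2.69 and from −3.04 to −2.49 with each library left out in turn (exact permutation p = 0.1 with all libraries on each day, the smallest possible, and 0.162 adjusted over the 76 tests). Between the days the ratio overlapped in both cell types (exact permutation p = 0.9 in each). This ratio was noticed in these data and then computed, and the difference is a description. It need not be particular to *Actc1*. *Myh3*, *Ckm* and *Myog* also had lower log2 differences between the cell types than *Acta1* (−0.64 on 0d and −0.84 on 5d). Those of *Myh3* were −2.09 and −2.30, of *Ckm* −1.92 and −2.77 and of *Myog* −1.53 and −1.03, none called. *Myod1*, *Myf5* and *Des* had lower ones on 0d only. Ratios of these markers to *Acta1* were not computed. Any reads of *Acta1* counted on *Actc1* would enter the ratio of *Actc1* to *Acta1*, and their number is not known.

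**Figure D4:**
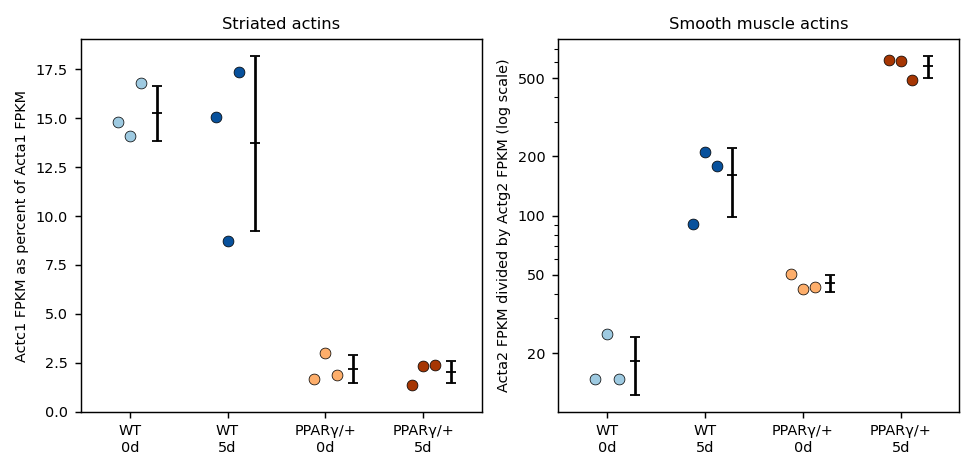
Ratios within each library, 1 point per library, with the mean and SD of the 3 libraries of each group beside them. Left, *Actc1* FPKM as a percent of *Acta1* FPKM, 8.74 or more in all 6 WT libraries and 2.99 or less in all 6 PPARγ/+ libraries. Right, *Acta2* FPKM divided by *Actg2* FPKM (log scale), which is higher on 5d than on 0d in both cell types and higher in PPARγ/+ cells.

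Across the 12 libraries the 10 genes fell into sets that moved together, which is a description of 4 groups of libraries rather than of independent points. On log2(FPKM + 0.1), *Actb* and *Actg1* had a Pearson r of 0.98 and *Tpm1* and *Tpm2* one of 0.97, and *Acta1* had r = 0.95 with *Acta2* and −0.92 with *Actg1*. Of 11681 genes with a mean of at least 1 FPKM, those closest to *Acta1* were *Mymk* (r = 0.999), *Mybph* (0.998) and *Myom2* (0.997). *Mymk* encodes the fusion protein myomaker, and *Mybph* and *Myom2* encode proteins that bind the sarcomeric thick filament. Closest to *Acta2* were *Cap2*, an actin-binding cyclase-associated protein (0.985), *Porcn* and *2010111I01Rik* (0.982 each). Closest to *Actb* were *Cndp2*, *Mrpl12* and *Pfn1* (0.983 each), the last of which encodes profilin, the protein that delivers actin monomers to growing filaments.

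Of 12 regulators of the thin filament, such as tropomodulins and leiomodins at the pointed end and nebulin along its length, 10 were tested. In WT cells 7 rose between 0d and 5d and none fell, where 8.94% of all genes tested rose (median log2 change 2.63, against −0.08 over all genes). In PPARγ/+ cells 8 rose, where 9.11% of all genes tested did (median 2.29, against −0.10). The largest was the leiomodin *Lmod2*, which nucleates actin filaments, at 5.68 in WT and 5.42 in PPARγ/+ cells. The smallest called were *Lmod1* in WT cells (1.26) and *Xirp2* in PPARγ/+ cells (1.63), the latter from a mean of 0.0108 to 0.243 FPKM. Between the cell types *Xirp1*, an actin-binding protein of muscle attachments, was lower in PPARγ/+ cells on 0d (log2 change −2.13, adjusted p = 0.0434 in limma), and *Lmod1* was higher on 5d (1.51, adjusted p = 0.012 in limma).

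Of 23 genes that turn actin filaments over 1 rose and 1 fell in WT cells, and 2 rose and 1 fell in PPARγ/+ cells (median log2 changes −0.40 and −0.33, against −0.08 and −0.10 over all genes). These counts were no higher than the share of all genes tested that rose (8.94% and 9.11%) or fell (7.53% and 6.06%). The gene that fell in both was *Cfl1*, the non-muscle cofilin that severs filaments, from a mean of 1187 to 528 FPKM in WT and from 1067 to 505 in PPARγ/+ cells. *Cap2* rose in both (5.00 and 2.41 on the log2 scale), and *Gsn*, the severing protein gelsolin, rose in PPARγ/+ cells (1.72). Of 11 bundling and adhesion genes, the sarcomeric α-actinins *Actn2* and *Actn3* rose in both cell types (3.96 and 3.09 in WT, 2.54 and 3.41 in PPARγ/+ cells), the filamin *Flna* fell in WT cells (−1.03), and *Zyx* rose in PPARγ/+ cells (1.19). That made 3 of 11 called in each, where 16.5% of all genes tested were called in WT and 15.2% in PPARγ/+ cells, and the medians were −0.15 and 0.01.

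Among genes of smooth muscle type and cofactors of SRF, 13 of 14 were tested, and 2 fell in WT and 3 in PPARγ/+ cells, where 7.53% and 6.06% of all genes tested fell (medians −0.38 and −0.48). None of the 13 rose, but *Lmod1*, a smooth muscle marker counted above among the thin filament regulators, rose in both (1.26 in WT and 2.07 in PPARγ/+ cells). *Cnn1* and *Tagln2* fell in both (−1.94 and −2.07 in WT, −2.10 and −1.41 in PPARγ/+ cells), *Cnn1* from a mean under 0.5 FPKM, and *Tagln*, which encodes transgelin, fell in PPARγ/+ cells (−1.68) from a mean of 33.0 to 9.62 FPKM. *Tagln2* had a called interaction (0.66, adjusted p = 0.0498 in limma), and no gene of the list was called between the cell types on either day. All 8 subunits of the chaperonin CCT, which folds new actin, were tested and none was called in any comparison. Their median log2 change was −0.86 in WT and −0.80 in PPARγ/+ cells, against −0.08 and −0.10 over all genes. Of these lists, the genes other than those with the largest and the smallest called change were named after their values were seen.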

How the data were processed

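RNA from 12 libraries of C2C12 cells (4 groups of 3) was sequenced after TruSeq RNA v2 preparation. As the study states, the authors used Trim Galore for trimming and STAR for alignment, assembled transcripts with Cufflinks, counted genes with HTSeq on Ensembl GRCm38, and deposited FPKM values per gene. The submitters' processing notes name mm9 instead, and positions given here are GRCm38. The authors also deposited the FPKM values as log2(FPKM + 1), which differed from the FPKM table by at most 5.3e-14 and was used for that check alone. No column of either table was left unassigned. Whether the counting used strand is not given in the sources used here. Fragments were recovered from FPKM, gene length and the mapped reads of each library, as whole numbers to within 0.0001 (lengths annotated for 21030 genes and inferred from the values for 6094, *Acta1* and *Acta2* among them). Their number limits precision, and at a few fragments counting error dominates.

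The FPKM unit allows no count model as the main test, so limma 3.58.1 (R 4.3.3) with a trended prior was fitted to log2(FPKM + 0.1) of genes at 0.1 FPKM or more in at least 3 libraries. Fold changes are on this scale, which understates those of low genes. Comparisons of days used the 6 libraries of a cell type and thresholds of p at most 0.05 and 2-fold. Comparisons of cell types and the interaction used all 12 libraries and Benjamini-Hochberg adjusted p-values. Shares and ratios within a library were compared by exact two-sided permutation tests. The fit was tested on simulated data. All 10 genes are described. For *Acta1*, *Acta2* and *Actb* the 3 genes of highest Pearson r were named, and of each pathway list those with the largest and smallest called change. One result of the pathway lists is not reported here. The members and lists were chosen with earlier results of these data known. The replicates are called biological, but their origin is not described, so p-values measure the spread between these samples, which may be technical. Alternatives covered the pseudocount, filter, scaling, weights, samples in the fit, replicate block, each library left out, and, chosen after seeing the data, voom on the recovered fragments and leaving out both libraries that stand apart. Figures were drawn with matplotlib 3.10.9 in Python 3.11.15.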

Additional observations from a re-analysis of the deposited data

Results flagged for a closer look

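The interaction of cell type and day passed the test in limma for *Tagln2*, a transgelin that binds actin filaments. Its coefficient was 0.66 (standard error 0.13, adjusted p = 0.0498), from log2 changes of −2.07 in WT and −1.41 in PPARγ/+ cells. *Tagln2* was thus lower on 5d in either cell type, by less in PPARγ/+ cells.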

How the results depend on the processing

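Of the fitted changes of the 10 genes under all alternatives, 963 kept direction and side of the threshold, 41 lost a call, 12 gained one and 14 turned sign, and of the counts, shares and ratios 321 stayed within their limits, 62 moved and 7 turned sign. The cause was not tested. With a pseudocount of 1 the genes called numbered 1441 in WT and 1241 in PPARγ/+ cells between the days, and 120 on 0d and 95 on 5d between the cell types. With a filter of 1 FPKM they numbered 1806 in PPARγ/+ cells between the days and 93 between the cell types on 5d. With array weights 555 were called on 0d, 1363 on 5d and 2070 for the interaction, and in a fit of the 6 libraries of 5d alone 28. Without WT_0d replicate 2 and WT_5d replicate 3 together, an alternative chosen after seeing the data, 821 were called on 5d and 488 for the interaction. With each library left out in turn the counts ran from 180 to 491 on 0d, from 78 to 796 on 5d and from 42 to 527 for the interaction, the highest of each without WT_5d replicate 3.

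Of the 10 genes, 2 were called between the cell types on 0d, against 1 with a pseudocount of 1, in the fit of 6 libraries and by voom, and 0 without a filter. On 5d 2 were called, against 1 with a pseudocount of 0.01 or no filter, 4 with array weights or without both libraries, and 0 in the fit of 6 libraries. For the interaction 0 were called, against 3 with array weights and 1 without both libraries. With each library left out they ran from 0 to 2 on 0d, 1 to 3 on 5d and 0 to 2 for the interaction.

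The sign turned in few cases, none of them called. *Acta1* on 0d ran from −1.30 to 0.41 with each library left out and was 0.41 without both libraries, *Acta2* on 0d ran from −0.06 to 0.14, the interaction of *Acta1* from −1.25 to 0.46 and that of *Actg1* from −0.08 to 0.11. The interaction of *Actb* was −0.05 after quantile normalization and that of *Actg1* −0.00 with array weights. The difference in the striated share on 0d ran from −1.36 to 0.179 percentage points, and in the *Tpm1* share from −0.0301 to 0.893 on 0d and from −0.138 to 2.2 on 5d. The change with time in the log2 ratio of *Actc1* to *Acta1* ran from −0.406 to 0.089 in WT and from −0.262 to 0.163 in PPARγ/+ cells.

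Same-numbered libraries correlated in their deviations by −0.068 to 0.083, which cannot show whether the replicate numbers paired the samples. Between PPARγ/+_0d and PPARγ/+_5d these values (0.042, 0.083 and 0.034) lay above the highest with another number (−0.01, −0.024 and 0.012). In each other pair of groups some or all lay below it. With the replicate block 3029, 2766, 311, 170 and 61 genes were called (days in WT and PPARγ/+ cells, cell types on 0d and 5d, interaction), and 6, 5, 0, 2 and 0 of the 10 genes. Values of a few fragments, as for *Actc1* in PPARγ/+_0d, are limited by depth.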
